A study of Homo sapiens with 2 samples.

Results

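The miR-99, miR-100 and miR-125 families were followed in 2 small RNA libraries of a human oral squamous cell carcinoma line. The deposited table of 1213 entries was searched for 8 mature names, and all 8 were found. These are miR-99a-5p, miR-99b-5p, miR-99b-3p, miR-100-5p, miR-100-3p, miR-125a-5p, miR-125a-3p and miR-125b-5p. The first library came from UM-SCC6-M, a culture grown from cells that crossed the matrix channel of a microfluidic chip and passed 3 rounds of this selection, and which the labels describe as highly invasive with some mesenchymal traits. The second came from the parental UM-SCC6 line. Each culture gave 1 library, so the differences have no replicate check, and the cultures were not tested against each other.

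MicroRNAs (miRNAs) pair with messenger RNAs, mainly through the seed at bases 2 to 8, and reduce the protein made from them. A hairpin precursor has 5p and 3p arms, and either arm can become a mature miRNA. In vertebrates the miR-99 and miR-100, let-7 and miR-125 families lie side by side in clusters that arose by duplication. miR-125 is the relative of the worm regulator lin-4, and miR-99 and miR-100 members are known to repress MTOR, the kinase at the centre of growth control. miR-125a is known to repress the growth factor receptor ERBB2.

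The 5p products fall into 2 seed groups, shown here because members of a group can pair with the same sites. Sequences are RefSeq's on GRCh38.p14, which held all 8 names, with the seed in capitals:
miR-100-5p: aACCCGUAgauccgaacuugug
miR-99a-5p: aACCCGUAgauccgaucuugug
miR-99b-5p: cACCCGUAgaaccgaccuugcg
miR-125a-5p: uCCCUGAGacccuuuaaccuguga
miR-125b-5p: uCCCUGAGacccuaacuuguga

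Counting positions from 1 at the 5′ end, miR-99a-5p differs from miR-100-5p by the single substitution A16U. miR-99b-5p differs from miR-100-5p by A1C, U11A, A16C and U21C, all outside the seed. miR-125a-5p is 24 bases long and miR-125b-5p 22, and their first 13 bases are the same. The 3p products of the miR-99 and miR-100 hairpins carry other seeds, and that of miR-125a another again:
miR-99b-3p: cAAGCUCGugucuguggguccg
miR-100-3p: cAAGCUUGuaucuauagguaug
miR-125a-3p: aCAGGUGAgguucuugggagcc

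Values are normalized reads, the read signal on the authors' own scale. Log2 ratios have UM-SCC6-M on top, and brackets give exact 95% binomial intervals that cover counting error only, since reads copied by PCR are not independent molecules. Recovered reads of all entries, 35 of which are candidates without a miRNA name, came to 7699490 in UM-SCC6-M and 8182958 in the parental library. A miRNA counted as 2-fold apart only where the larger of its 2 values was 50 normalized reads or more, a floor that 179 miRNAs and 6 of the 8 members reached. Of the 5 epithelial markers 3 reached 10 normalized reads, and the 5 summed to 19623 in UM-SCC6-M and 16344 in the parental library. Most of each sum was miR-200b-3p, with 17481 in UM-SCC6-M and 12823 in the parental library. The markers did not move together, as miR-200a-3p had 1344 in UM-SCC6-M and 2674 in the parental library. miR-200c-3p stood at only 1.79 in UM-SCC6-M and 2.66 in the parental library. miR-203a-3p stood at 2.75 in UM-SCC6-M and was listed at 0 in the parental library. Of the 5 stromal markers 2 reached 10 normalized reads, and the sums were 25.9 in UM-SCC6-M and 20.9 in the parental library. These 2 differed in opposite directions. miR-143-3p had 4.1 in UM-SCC6-M and 10.4 in the parental library, and miR-199a-3p had 21.9 and 10.5. For miR-127-3p, miR-145-5p and miR-214-3p, 0 was listed in both libraries. The endothelial marker miR-126-3p stood at 519.9 in UM-SCC6-M and 968.3 in the parental library. Of the 4 blood markers 3 were in the deposited table. Of these, miR-486-5p stood at 17.9 in UM-SCC6-M and 24.6 in the parental library, while miR-451a and miR-142-3p had 0 in both libraries. The muscle markers summed to 111.3 in UM-SCC6-M and 337.1 in the parental library, almost all of it miR-1-3p. The part of such markers in the results below was not tested.

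In the miR-99 and miR-100 seed group, the most abundant parental member was more than 2-fold lower in the invasive culture and the others were within 2-fold. In RNA from a whole culture, fewer cells with a miRNA and less of it per cell cannot be told apart. miR-100-5p had 7107 normalized reads in UM-SCC6-M and 22784 in the parental library, on 59520 and 171455 reads. It was 3.21-fold lower (3.18 to 3.24), a log2 ratio of -1.68, and of the 179 miRNAs at the floor 11 had a lower ratio. It ranked 21 by abundance in UM-SCC6-M and 6 in the parental library. miR-99b-5p, its counterpart on chromosome 19, had 7849 normalized reads in UM-SCC6-M and 8382 in the parental library. Its log2 ratio of -0.09 (-0.11 to -0.08) became 0.15 when the libraries were scaled to total reads, so no direction is given for it. miR-99a-5p, which differs from miR-100-5p by 1 base, went the other way. It had 762.6 normalized reads in UM-SCC6-M and 527.6 in the parental library, which is 1.45-fold higher, a log2 ratio of 0.53 (0.47 to 0.59).

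By reads, the leading paralog of the group differed between the libraries. miR-99b-5p made up 49.9% of the group's reads in UM-SCC6-M (49.7 to 50.2) and 26.4% in the parental library (26.3 to 26.6). miR-100-5p made up 45.2% in UM-SCC6-M (44.9 to 45.5) and 71.9% in the parental library (71.7 to 72.1). miR-99a-5p remained the minor member, at 4.85% in UM-SCC6-M (4.74 to 4.97) and 1.66% in the parental library (1.61 to 1.72). The lead of miR-99b-5p in UM-SCC6-M depends on telling miR-100-5p from miR-99a-5p. Summed, those made up 50.1% there (49.8 to 50.3), so miR-99b-5p no longer led. Shares within a library do not depend on the scaling. Ligation favours some small RNA sequences over others, so a share describes reads and not molecules in the cell.

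The whole group, which shares 1 seed, had 15718 normalized reads in UM-SCC6-M against 31694 in the parental library. This was 2.02-fold lower (2.00 to 2.03), and its log2 ratio of -1.01 became -0.77 under scaling to total reads, short of 2-fold. As a share of all recovered reads the group held 1.71% in UM-SCC6-M (1.70 to 1.72) and 2.91% in the parental library (2.90 to 2.93). With miR-99a-5p and miR-100-5p counted as 1 because of their single base difference, their sum was 7870 normalized reads in UM-SCC6-M and 23311 in the parental library, 2.96-fold lower. How reads that match more than 1 name were assigned is not given in the sources used here.

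**Figure D1:**
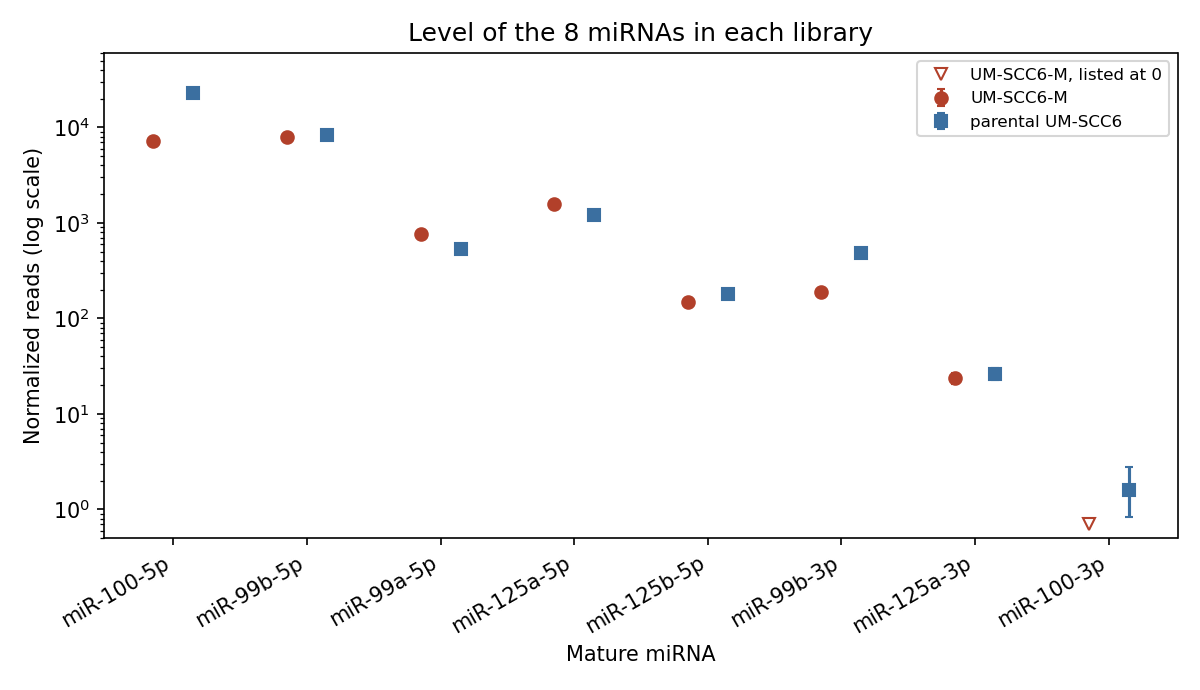
Normalized reads (log scale) of each of the 8 miRNAs in UM-SCC6-M (red circles) and parental UM-SCC6 (blue squares), 1 library each, with exact Poisson 95% counting intervals as bars; the open triangle marks a value listed at 0. miR-100-5p and miR-99b-3p lie well below their parental values, whereas miR-99a-5p and miR-125a-5p lie above theirs.

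The miR-125 seed group was far less abundant and its main member was slightly higher in the invasive culture. miR-125a-5p had 1582 normalized reads in UM-SCC6-M and 1217 in the parental library, 1.30-fold higher (1.27 to 1.33). miR-125b-5p had 148.7 normalized reads in UM-SCC6-M and 178.9 in the parental library, 1.20-fold lower (1.11 to 1.30). Its log2 ratio of -0.27 kept its sign under all 5 scalings but came as near to 0 as -0.02. The 2 log2 ratios differed by 0.64, with a counting SE of 0.06. miR-125a-5p gave 91.4% of the group's reads in UM-SCC6-M (90.9 to 91.9) and 87.2% in the parental library (86.5 to 87.8). The summed group had 1731 normalized reads in UM-SCC6-M and 1396 in the parental library, a log2 ratio of 0.31 (0.27 to 0.35).

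Over the 8 names, 2 were at least 2-fold lower in UM-SCC6-M, namely miR-100-5p and miR-99b-3p, and 0 at least 2-fold higher. Among all 179 miRNAs at the floor, 12.8% were at least 2-fold lower, 7.26% at least 2-fold higher and 20.1% past the threshold in either direction. A count of 2 among 6 members at the floor does not set the families apart from that background. Their median log2 ratio was -0.18, beside 0.04 over all 179. In the authors' deposited table, 44 of the 1213 entries carry the mark of selected miRNAs, where 555 entries have reads known in both libraries. miR-100-5p and miR-99b-3p are the 2 members among the 44. miR-125b-1-3p, a product of the same cluster as miR-100-5p, carries the mark too. Whether the members are marked more often than other entries was not tested.

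**Figure D2:**
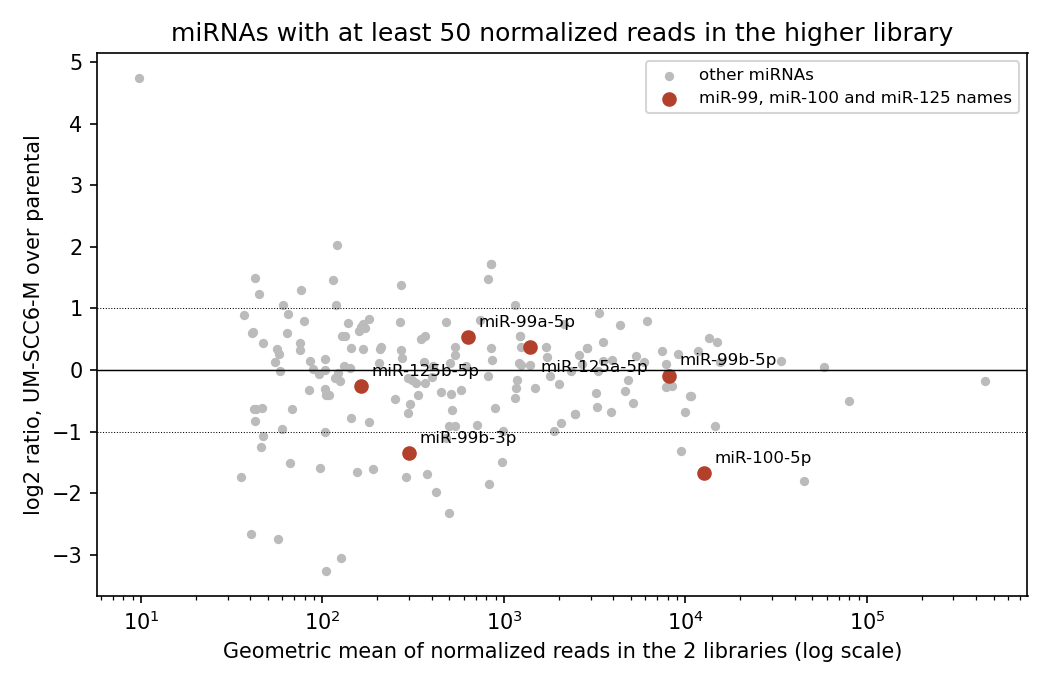
Log2 ratio (UM-SCC6-M over parental) against the geometric mean of normalized reads (log scale) for the 179 miRNAs at the floor of 50 normalized reads; red points are the 6 members that reach this floor and dotted lines mark 2-fold. miR-100-5p is among the most abundant of the miRNAs beyond 2-fold, and the other members shown lie within 2-fold except miR-99b-3p.

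The 8 names come from 3 paralogous clusters, located here in GENCODE release 29 (GRCh38), since no build is named with the deposited table. The cluster on chromosome 11 holds MIR100 (chr11:122152229-122152308), MIRLET7A2 and MIR125B1 (chr11:122099757-122099844) on the minus strand, in introns of the long non-coding gene MIR100HG, with 52.4 kb between the outer hairpins. The cluster on chromosome 21 holds MIR99A (chr21:16539089-16539169), MIRLET7C and MIR125B2 (chr21:16590237-16590325) on the plus strand, in introns of the non-coding gene MIR99AHG, with 51.1 kb between the outer hairpins. The cluster on chromosome 19 holds MIR99B (chr19:51692612-51692681), MIRLET7E and MIR125A (chr19:51693254-51693339) on the plus strand in an intron of SPACA6, a protein-coding gene needed for sperm-egg fusion in mice, with 572 bases between the outer hairpins. No exon of the host gene's transcripts overlaps any of the 9 hairpins.

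miR-125b-5p is the same from MIR125B1 and MIR125B2, so its reads do not tell the loci apart. The 3p products of these hairpins do differ, and are shown because they identify the locus:
miR-125b-1-3p: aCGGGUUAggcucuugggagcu
miR-125b-2-3p: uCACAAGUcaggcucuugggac

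The 3p products of the 2 loci stood in opposite order in the libraries. Whether their reads follow the output of the loci was not tested. A shift in arm balance cannot be told apart from a difference in that output. miR-125b-1-3p, from chromosome 11, had 47 reads in UM-SCC6-M and 283 in the parental library, 6.64-fold lower in normalized reads (4.91 to 9.33). miR-125b-2-3p, from chromosome 21, had 184 reads in UM-SCC6-M and 64 in the parental library, 2.57-fold higher (1.93 to 3.49). The chromosome 11 product thus made up 20.3% of the 3p reads of miR-125b in UM-SCC6-M (15.3 to 26.1) and 81.6% in the parental library (77.1 to 85.5). The 2 log2 ratios differed by -4.09, with a counting SE of 0.31, while that of the shared 5p product lay between them. Both products were below the floor of 50 normalized reads, and at a floor of 10 the share of miRNAs at least 2-fold apart was 22.8%. In the authors' deposited table miR-125b-1-3p carries the mark of selected miRNAs and miR-125b-2-3p does not. The deposited figures compare these 2 libraries and not the 2 conditions.

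**Figure D3:**
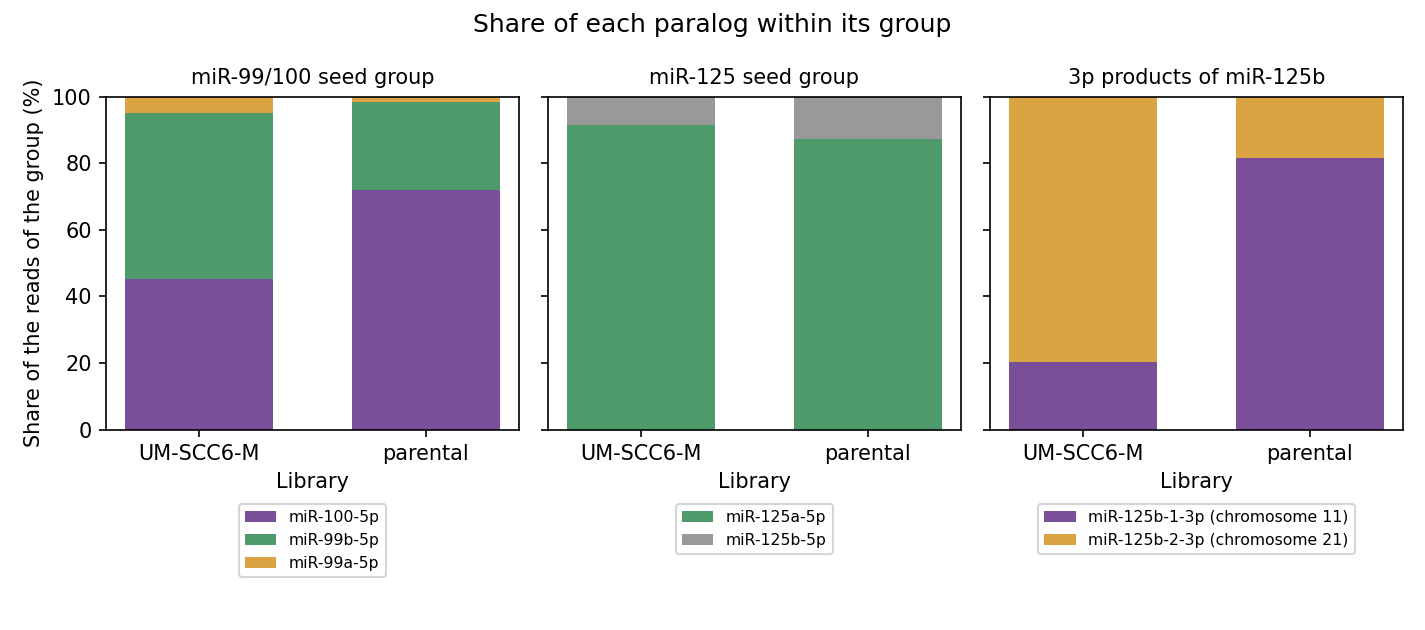
Share of reads (%, stacked) of each paralog in UM-SCC6-M (left bars) and parental UM-SCC6 (right bars) for the miR-99 and miR-100 seed group, the miR-125 seed group and the locus-specific 3p products of miR-125b. The chromosome 11 products, in purple, make up 45.2% and 20.3% of their groups in UM-SCC6-M, against 71.9% and 81.6% in the parental library.

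On chromosomes 11 and 21, the other single-cluster products with known reads lay on the same side as their neighbours. On chromosome 11, let-7a-2-3p had 6 reads in UM-SCC6-M and 13 in the parental library, and its interval (-2.95 to 0.23) includes 0. All 3 products of this cluster with known reads had log2 ratios below 0, and for 2 the interval lay below 0. On chromosome 21, let-7c-5p, a member of the let-7 family that represses RAS and HMGA2 transcripts, had 626.2 normalized reads in UM-SCC6-M and 365.7 in the parental library, 1.71-fold higher (1.63 to 1.79). let-7c-3p had 49 reads in UM-SCC6-M and 10 in the parental library, a log2 ratio of 2.08 (1.14 to 3.29). All 4 products of this cluster with known reads had intervals above 0. Each of these 7 ratios kept its sign under all 5 scalings. let-7a-5p, which MIRLET7A2 shares with hairpins on chromosomes 9 and 22, had a log2 ratio of 0.52 and does not identify a locus. let-7c-5p differs from let-7a-5p by A19G alone, so reads of these names, like those of miR-99a-5p and miR-100-5p, can be confused by a single base.

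Within a locus the size of the difference was not uniform. On chromosome 11 the log2 ratio of miR-100-5p lay 1.05 above that of miR-125b-1-3p, with a counting SE of 0.23. On chromosome 21 that of miR-99a-5p lay 0.24 below let-7c-5p (counting SE 0.04) and 0.83 below miR-125b-2-3p (counting SE 0.21). miR-99a-3p was listed at 0 in both libraries, so its reads are not known. The authors' deposited log2 fold change for it is -0.15, on the other side of 0 from the other products of only this cluster. The deposited value of miR-125a-3p, with equal reads in both libraries, is the same, so no direction is given for miR-99a-3p.

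The 5p products of the chromosome 19 cluster were all within 2-fold between the libraries, and their ratios were not uniform either. In the order of their hairpins along the strand, the log2 ratios were -0.09 for miR-99b-5p, 0.21 for let-7e-5p and 0.38 for miR-125a-5p. let-7e-5p had 1857 normalized reads in UM-SCC6-M and 1609 in the parental library. The gap of 0.30 between miR-99b-5p and let-7e-5p had a counting SE of 0.02, and that of 0.17 between let-7e-5p and miR-125a-5p one of 0.03. From miR-99b-5p to miR-125a-5p the gap was 0.47, with a counting SE of 0.02. Summed over its 6 products the cluster had 11530 normalized reads in UM-SCC6-M and 11733 in the parental library, a log2 ratio of -0.03. The chromosome 11 products summed to -1.68, of which nearly all reads were miR-100-5p, and those of chromosome 21 to 0.65.

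**Figure D4:**
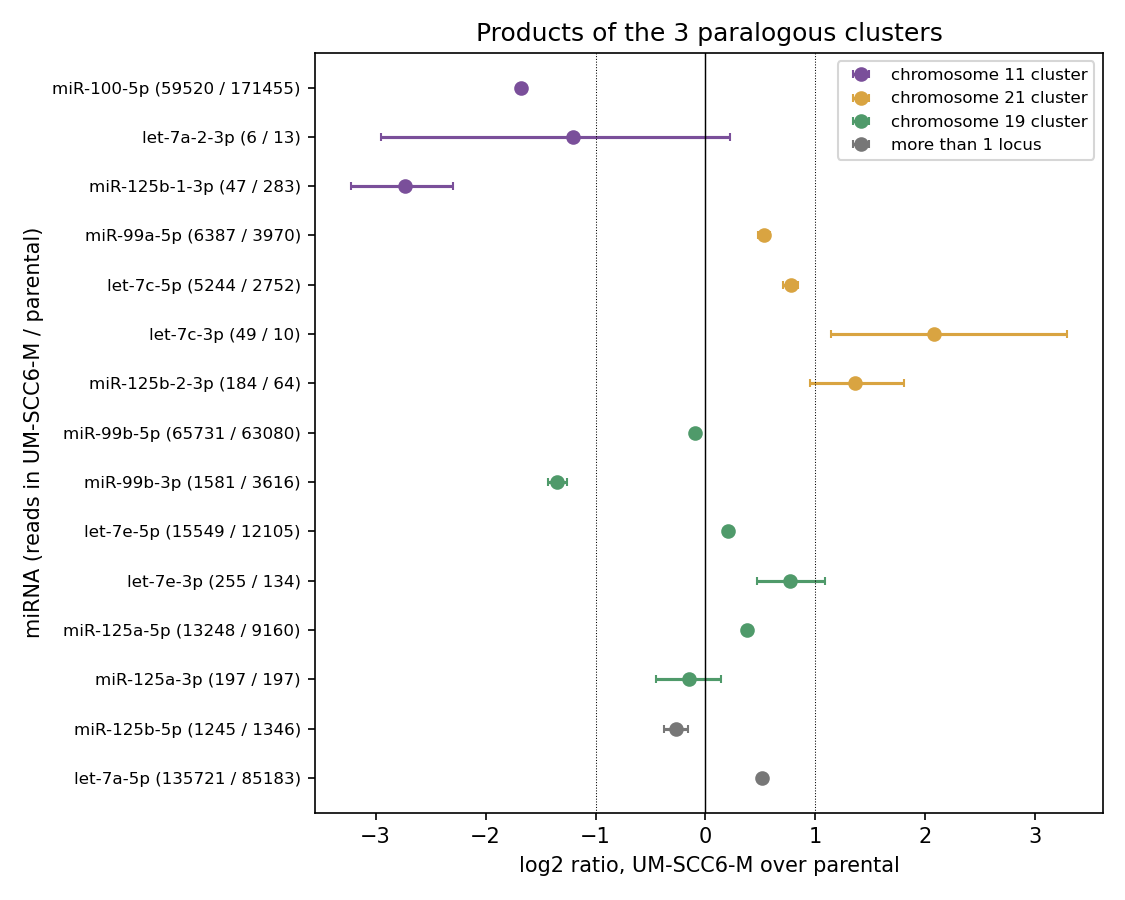
Log2 ratio (UM-SCC6-M over parental) of the products of the 3 clusters with exact 95% counting intervals; reads in UM-SCC6-M and in the parental library stand beside each name, and dotted lines mark 2-fold. The 3 chromosome 11 points lie left of 0 and the 4 chromosome 21 points right of 0, while those of chromosome 19 lie on both sides.

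The arms of the hairpins were compared next. The hairpins of miR-99b and miR-100 are printed because their arms gave very unequal reads, with the mature 5p and 3p products in capitals:
MIR99B: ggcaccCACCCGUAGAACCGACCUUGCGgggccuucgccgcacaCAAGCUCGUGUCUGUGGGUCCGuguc
MIR100: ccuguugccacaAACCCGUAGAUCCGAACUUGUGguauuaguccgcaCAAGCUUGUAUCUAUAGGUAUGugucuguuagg

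miR-99b-3p, the minor arm of MIR99B, was more than 2-fold lower in the invasive culture while the major arm was within 2-fold. It had 188.8 normalized reads in UM-SCC6-M and 480.5 in the parental library, 2.54-fold lower (2.40 to 2.70). It made up 2.35% of the reads of its hairpin in UM-SCC6-M (2.24 to 2.47) and 5.42% in the parental library (5.25 to 5.60). The 5p arm thus exceeded the 3p arm 41.6 times in UM-SCC6-M and 17.4 times in the parental library. On the log2 scale the balance differed by 1.25, with a counting SE of 0.04, a value that no scaling of the libraries changes. Of 30 hairpins with both arms at the floor, 9 (30%) differed by at least 1 in either direction, and 4 had a larger shift toward the 5p arm than miR-99b. The 30 include miR-423 at 0.19 and miR-3184 at -0.18, which name opposite strands of 1 locus.

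The arms of miR-125a shifted less. miR-125a-3p had 23.5 normalized reads in UM-SCC6-M and 26.2 in the parental library, on 197 reads in each, and the interval of its log2 ratio (-0.45 to 0.14) includes 0. It made up 1.47% of the hairpin's reads in UM-SCC6-M (1.27 to 1.68) and 2.11% in the parental library (1.82 to 2.42). The balance differed by 0.53 toward the 5p arm, with a counting SE of 0.15. The log2 ratios of the 2 minor arms on chromosome 19, miR-99b-3p and miR-125a-3p, differed by -1.19 with a counting SE of 0.15. miR-100-3p was listed at 0 in UM-SCC6-M and had 1.59 normalized reads, or 12 reads, in the parental library. The authors' deposited table gives no fold change for it, so its UM-SCC6-M reads are unknown and no ratio is given. let-7a-2-3p, also listed at 0 in UM-SCC6-M, has its 6 reads there from the deposited fold change.

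**Figure D5:**
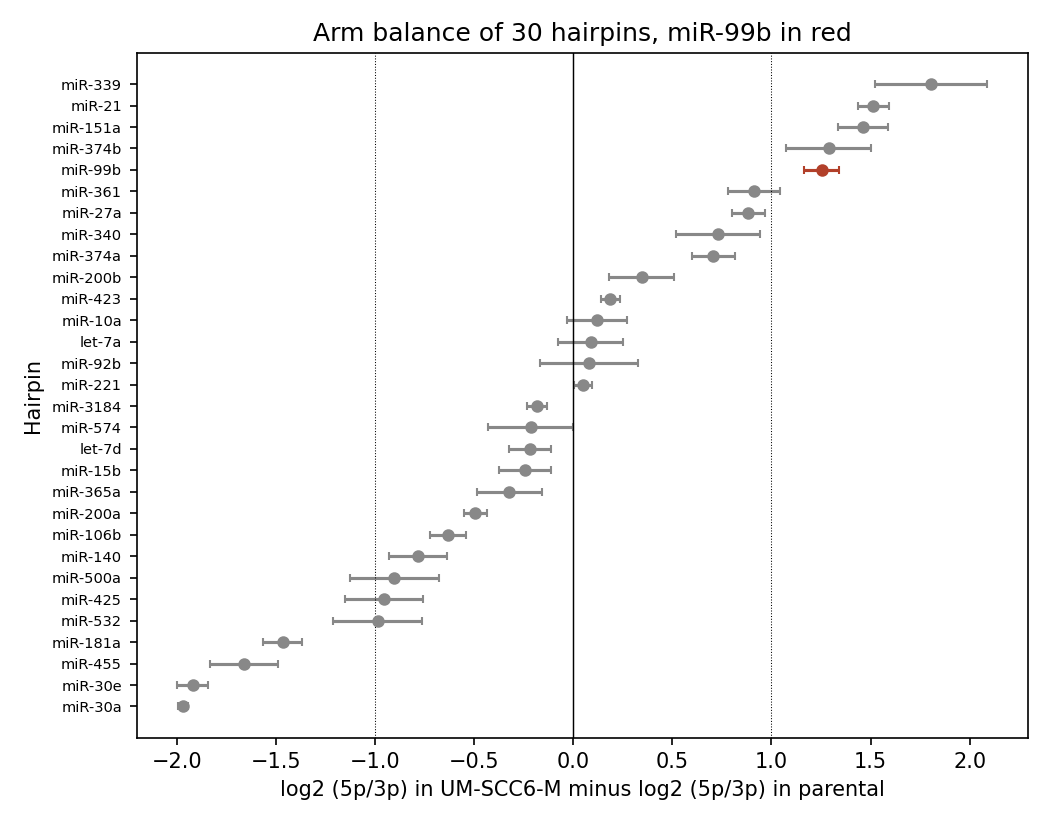
Difference between the libraries in log2 (5p/3p), UM-SCC6-M minus parental, for 30 hairpins, with 95% counting intervals as bars. Both arms of each had 50 or more normalized reads in the library where that arm was higher. miR-99b is in red and dotted lines mark a difference of 1. miR-99b lies at 1.25; 4 hairpins lie above it.

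The nearest relatives outside these families are miR-10a and miR-10b, from the HOX clusters of developmental genes. miR-10a-5p shares an unbroken run of 11 bases with miR-100-5p but has another seed:
miR-10a-5p: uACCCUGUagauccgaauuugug

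It had 16311 normalized reads in UM-SCC6-M and 14847 in the parental library, a log2 ratio of 0.14 (0.12 to 0.15). miR-10b-5p had 5782 normalized reads in UM-SCC6-M and 4952 in the parental library, a log2 ratio of 0.22 (0.20 to 0.24). Both ratios stayed above 0 under all 5 scalings.

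With 2 libraries, likeness to other miRNAs can be given only as the distance between log2 ratios among those at the floor. Nearest to miR-100-5p were miR-21-3p at -1.69, miR-548o-3p at -1.65 and miR-147b at -1.73, all far less abundant. Nearest to miR-99b-3p were miR-148a-3p at -1.32, miR-331-5p at -1.25 and miR-200a-5p at -1.49. Nearest to miR-99a-5p were let-7a-5p at 0.52, and miR-3184-3p and miR-423-5p, both at 0.55, which name opposite strands of 1 locus. miR-3184-3p and miR-423-5p had 7619 parental reads each, so they may not be separate neighbours. miR-125a-5p was nearest to miR-15b-5p, miR-17-5p and miR-98-5p, within 0.0059 of each. miR-99b-5p was nearest to miR-320a, miR-429 and miR-27a-5p, and miR-125b-5p to miR-103a-3p, miR-103b and miR-221-5p. miR-103a-3p and miR-103b may hold some of the same reads, with 64609 and 59654 in UM-SCC6-M.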

How the data were processed

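Per the labels' protocols, adapters were ligated to the small RNAs in 3 µg of total RNA, and products of 140 to 160 bp were cut from a gel. Bowtie is named in the submitters' processing notes, with no version. How reads were counted and scaled, and on which genome build, is not given in the sources used here. Both library columns hold a read signal scaled by the authors. All values above 0 were multiples of a step, 1 for each library (0.119 in UM-SCC6-M and 0.133 in parental, largest deviation 7.2e-05 reads), and dividing by it gave reads. Values below 1 were listed as 0. Where 1 column was 0, its reads came from the deposited log2 fold change, and where that too was blank, as for miR-100-3p, they are unknown. The authors' deposited log2 fold changes, p-values and q-values were copied but called no difference.

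Log2 ratios used the deposited scaling with 0.5 reads added to each library. Intervals are Clopper-Pearson 95% intervals, of shares or of 1 library's part of a miRNA's reads converted to a ratio, and cover counting error only. Intervals of differences use the normal approximation to the counting standard error. The size rule was at least 2-fold with 50 normalized reads in the higher library, applied to all miRNAs. The computation was run on simulated reads with 4-fold differences and counting noise only. This checked the code, and not variation between cultures or differences near 2-fold. Members and lists were chosen with earlier results of these data known. Named were all members, other products of their clusters, miR-10a and miR-10b, and the 3 miRNAs nearest in log2 ratio to each member at the floor. Alternatives were 4 other scalings, 5 reads added, the deposited fold changes, other floors and folds, and miR-99a-5p with miR-100-5p as 1. Python 3.11.15, numpy 2.4.6, pandas 2.3.3, scipy 1.17.1 and matplotlib 3.10.9 were used.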

Additional observations from a re-analysis of the deposited data

How the results depend on the processing

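Each scaling moves every log2 ratio by the same amount. Scaling to total reads raised them by 0.24, the median of ratios by 0.04 and the total without the 10 most abundant miRNAs by 0.07, and the trimmed mean lowered them by 0.02. In that order, the miR-99 and miR-100 seed group had log2 ratios of -0.77, -0.97, -0.94 and -1.03, so it reached 2-fold under the deposited scaling and the trimmed mean only. The miR-125 seed group had 0.55, 0.35 and 0.38 under the first 3. miR-100-5p and miR-99b-3p were past 2-fold under all 5 scalings, and miR-99b-5p and miR-125a-3p changed sign. No member passed 4-fold, a count of 0 in place of 2. At floors of 10 and 200 normalized reads, 20 of 70 and 5 of 13 hairpins had an arm difference of at least 1. With miR-99a-5p and miR-100-5p as 1, their share of the seed group was 50.1% in UM-SCC6-M and 73.6% in the parental library. Adding 5 reads left each difference between members, neighbours or arms within its counting interval. No paired analysis was possible because each group has 1 library. Variation between cultures and between library preparations was not measured, and the 47 to 283 reads of the miR-125b 3p products limit their ratios.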

Other observations

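The minor arms of the neighbouring let-7 hairpins took larger shares in UM-SCC6-M. let-7c-3p made up 0.926% of its hairpin's reads in UM-SCC6-M (0.686 to 1.22) and 0.362% in the parental library (0.174 to 0.665), on 49 and 10 reads. let-7e-3p, from the chromosome 19 cluster, made up 1.61% in UM-SCC6-M (1.42 to 1.82) and 1.09% in the parental library (0.918 to 1.30). Between these hairpins on the same strand, let-7e lay toward its 3p arm in UM-SCC6-M whereas miR-99b and miR-125a lay toward their 5p arms. miR-10a-3p made up 0.545% in UM-SCC6-M (0.507 to 0.586) and 0.592% in the parental library (0.548 to 0.638), with intervals that overlap. miR-10b-3p made up 0.307% in UM-SCC6-M (0.260 to 0.360) and 0.220% in the parental library (0.175 to 0.272). These intervals overlap too, and the 5p to 3p balance differed by -0.48 on the log2 scale with a counting SE of 0.20, in the direction of the let-7 hairpins.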
